A study of Mus musculus with 9 samples.

Results

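Transcripts of 5 families of drug- and toxin-metabolizing enzymes were followed in the colon of 9 mice, 3 in each of 3 groups. The members were all genes of the count table whose symbol begins with Cyp1 to Cyp4, Ugt1 or Ugt2, Sult1 to Sult6, Ces1 to Ces3, or Gst and a class letter (a, k, m, o, p, t or z), 161 of 21959 genes. They comprise 81 cytochrome P450 genes (Cyp), 19 UDP-glucuronosyltransferase genes (Ugt), 21 sulfotransferase genes (Sult), 17 carboxylesterase genes (Ces) and 23 glutathione S-transferase genes (Gst). The symbol patterns themselves use no measured value, but the families were chosen with earlier results of these data known. The Blank group had no treatment, the Model group received dextran sulfate sodium (DSS), a sulfated polymer that injures the colon lining and is used to model ulcerative colitis, and the CDs group received DSS together with carbon dots made from lotus node charcoal. All 9 mice are labelled wild type, and the submitters describe the replicates as biological. The sources used here state no strain, sex, age, dose or length of treatment. RNA came from whole colon tissue, so fewer cells of a type and less RNA per cell cannot be told apart in any value below.

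Enzymes of these families clear foreign compounds and many hormones, bile acids and lipids in successive steps. Cytochromes P450 oxidize a substrate with electrons from the reductase encoded by Por, and carboxylesterases split ester and amide bonds, so that both expose a group to which a sugar, a sulfate or glutathione can be joined. Ugt enzymes then add glucuronic acid, Sult enzymes add sulfate and Gst enzymes add glutathione, and transporters carry the product out of the cell. Many of the genes stand in tandem arrays of close relatives. The liver holds the largest amounts of most of them, while the lining cells of the gut express a set of their own. Nuclear receptors and other factors control them, among them the aryl hydrocarbon receptor (Ahr), the pregnane X receptor (Nr1i2), Nfe2l2 and the hepatocyte nuclear factor HNF4, which is also found in gut epithelium.

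The libraries held 13868864 to 19940300 counted reads, and 0 reads in a library allow a level of up to 0.142 to 0.221 CPM, depending on the library (3 reads, counting error only). Levels of single genes are given as CPM, the reads of a gene relative to all reads of its library after TMM scaling, and levels compared between genes are given as the deposited FPKM values, which correct for gene length. Markers of other tissues were present in some libraries. The 8 pancreatic acinar markers summed to 6950 CPM in Model 1, 58980 CPM in Model 3 and 257.8 CPM in CDs 1, and to at most 1.10 CPM in the other 6 libraries. Reads of the prostate gene Pbsn reached 894.7 CPM in Blank 2 and 112.7 CPM in Blank 3 and at most 0.237 CPM elsewhere, and Tgm4 reached 602.5 and 56.4 CPM there and at most 2.5 CPM elsewhere. The sum of the 5 prostate markers did not set Blank 3 apart (288.1 CPM beside 287.2 CPM in CDs 2), since Spink1, also on that list, was at 81.3 to 286.3 CPM in all libraries. The 7 liver markers summed to 43.6 to 90.1 CPM, with 49.8 to 66.1 CPM in Blank, 43.6 to 62.1 CPM in Model and 62.8 to 90.1 CPM in CDs. Most of that came from Tat (27.4 to 85.5 CPM) and Ttr (3.20 to 31.3 CPM), while Alb reached at most 2.26 CPM and Apoh at most 0.274 CPM. The 12 epithelial markers summed to 11840 to 13260 CPM in Blank, 5925 to 10570 CPM in Model and 6214 to 11890 CPM in CDs, all 12 with reads. Fibroblast, macrophage and neutrophil markers (6 of 6 in each list) were called higher in Model than in Blank, as were 24.5% of all tested genes.

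Promoter sequence was available in RefSeq (GRCm38.p6, 250 bases before to 50 after each start) for 133 of the 161 members and 63 of the 77 that could be tested, and short motifs were searched in it on both strands. The HNF4 motif CAAAGTCCA was present in 11 of 152 member promoters (7.24%), beside 0.475% of all 32851 promoters. Genes of an array are close relatives, so their promoters are not independent, and only 4 of the 11 genes with the motif could be tested. The antioxidant response element core TGACNNNGC, the letters bound by Nfe2l2, was in 5.92% of member promoters and 12.4% of all. The xenobiotic response element core GCGTG, the letters bound by the Ahr complex, was in 18.4% and 32.4%. Letters that match are not a binding site, and no binding was measured. The 4 tested members with the HNF4 motif are shown first. Capitals mark the motif, and each sequence runs 5′ to 3′ on the gene's own strand.
Cyp2c65: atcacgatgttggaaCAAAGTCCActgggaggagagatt
Cyp2c68: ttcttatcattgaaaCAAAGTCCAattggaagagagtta
Cyp2c69: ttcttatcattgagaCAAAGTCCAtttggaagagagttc
Sult1b1: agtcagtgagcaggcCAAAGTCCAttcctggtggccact

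The windows are chr19:39060875-39060913 (plus strand) for Cyp2c65, chr19:39741155-39741193 (minus) for Cyp2c68, chr19:39886821-39886859 (minus) for Cyp2c69 and chr5:87536174-87536212 (minus) for Sult1b1. The motif lies 116, 77 and 75 bases before the annotated start in the 3 Cyp2c genes and 26 bases after it in Sult1b1. Of the 4, Cyp2c69 was called lower in Model than in Blank, and Cyp2c68 was not called (log2 fold change -2.21, adjusted p 0.0514 in edgeR), nor were Cyp2c65 and Sult1b1. Cyp2c68 was called lower by DESeq2 (adjusted p 0.0395) and when libraries were scaled to epithelial markers (edgeR adjusted p 0.0371). The antioxidant core was present in 7 tested members, of which 4 were called lower, 1 higher and 2 not called, where 32 of all 63 tested members with a promoter and 19.6% of all tested genes were called lower. Those of Gsta3 and Gstm7, both called lower, and of Cyp4f18, which was called higher, are shown because their genes went opposite ways.
Gsta3: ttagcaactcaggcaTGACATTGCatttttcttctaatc
Gstm7: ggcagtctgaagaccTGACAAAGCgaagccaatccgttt
Cyp4f18: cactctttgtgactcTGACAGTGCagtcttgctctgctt

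These lie at chr1:21240449-21240487 (plus), chr3:107931720-107931758 (minus) and chr8:72009743-72009781 (minus). The xenobiotic core was present in 17 tested members, of which 7 were called lower, 2 higher and 8 not called. Beside this stand the 32 of 63 called lower, and 19.6% lower and 24.5% higher of all tested genes. The promoter of Cyp1a1, the textbook target of the Ahr, holds it 54 bases before its start, and that of Cyp1b1, another Ahr target, holds it on the opposite strand, 76 bases before. The windows are chr9:57697544-57697578 (plus) and chr17:79715118-79715152 (minus). The only tested member in which these motifs overlap one another is Gstm5.
Cyp1a1: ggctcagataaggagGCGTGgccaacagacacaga
Cyp1b1: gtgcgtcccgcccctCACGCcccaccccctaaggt

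Model versus Blank asks how the families differed in DSS-treated colon. All 5 families summed lower in Model than in Blank. The Cyp family summed to 713, 599 and 1012 FPKM in Blank 1 to 3 and to 574, 225 and 286 FPKM in Model 1 to 3, so the Model mean was 0.467 times the Blank mean. Ugt genes summed to 175, 183 and 193 FPKM in Blank and to 82.0, 39.9 and 37.4 FPKM in Model, 0.289 times the Blank mean. The Sult sums were 409, 382 and 453 FPKM in Blank and 189, 131 and 88.6 FPKM in Model (0.329 times), and the Gst sums were 623, 564 and 578 FPKM in Blank and 359.6, 337 and 285 FPKM in Model (0.556 times). In these 4 families no Model library reached the lowest Blank library. The Ces sums did overlap, at 256, 207 and 280.0 FPKM in Blank and 259.5, 163 and 167 FPKM in Model, 0.792 times the Blank mean. Model 1 was the highest Model library in every family. It also held the most epithelial marker reads of the 3 Model libraries, 10570 CPM beside 6450 and 5925 CPM, and whether the one set the other was not tested.

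**Figure D1:**
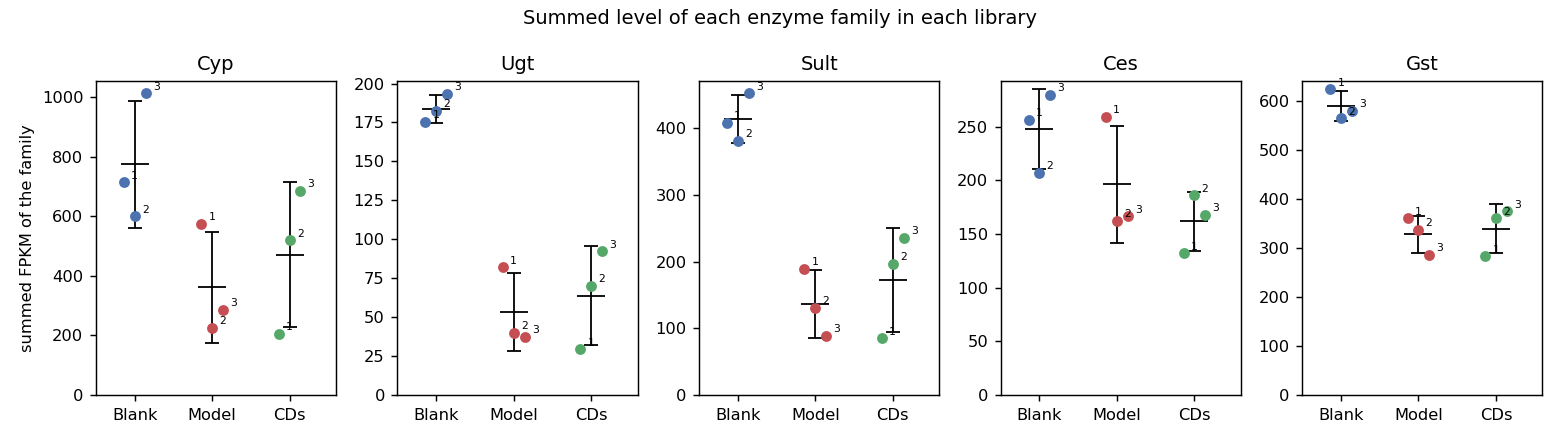
Summed deposited FPKM of each family (vertical axis, from 0) in each library, with points numbered by replicate and the group mean ± SD over 3 libraries in black. In Cyp, Ugt, Sult and Gst every Model library lies below every Blank library, and CDs 1 is the lowest CDs library in all 5 panels.

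Of the 161 members, 77 passed the filter on low counts and were tested with edgeR's quasi-likelihood test: 32 Cyp, 4 Ugt, 9 Sult, 12 Ces and 20 Gst genes. A gene is referred to as called where its p-value, adjusted over all 14921 genes tested, was under 0.05. Model versus Blank called 33 of the 77 lower (42.9%) and 8 higher (10.4%), where the background over all tested genes was 19.6% called lower and 24.5% called higher (44.1% in either direction). Gst had 12 of 20 lower and none higher, Ugt 4 of 4 lower, Sult 4 of 9 lower and 2 higher, Ces 3 of 12 lower and 2 higher, and Cyp 10 of 32 lower and 4 higher. The median log2 fold change was -0.71 for Gst, -2.09 for Ugt, -0.50 for Sult, -0.67 for Ces and -0.73 for Cyp, beside -0.03 for all tested genes. Of the 41 calls, 30 (24 lower, 6 higher) were kept with every single library left out in turn. With Blank 2 and Blank 3, the libraries with prostate transcripts, both left out, 14 of the 41 stayed called and the calls over all genes went from 6574 to 1572. Blank 1 then stood alone and was taken to vary as the other groups do. All 41 calls were also made by DESeq2, which called 50 members, and 38.8% of all genes.

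**Figure D2:**
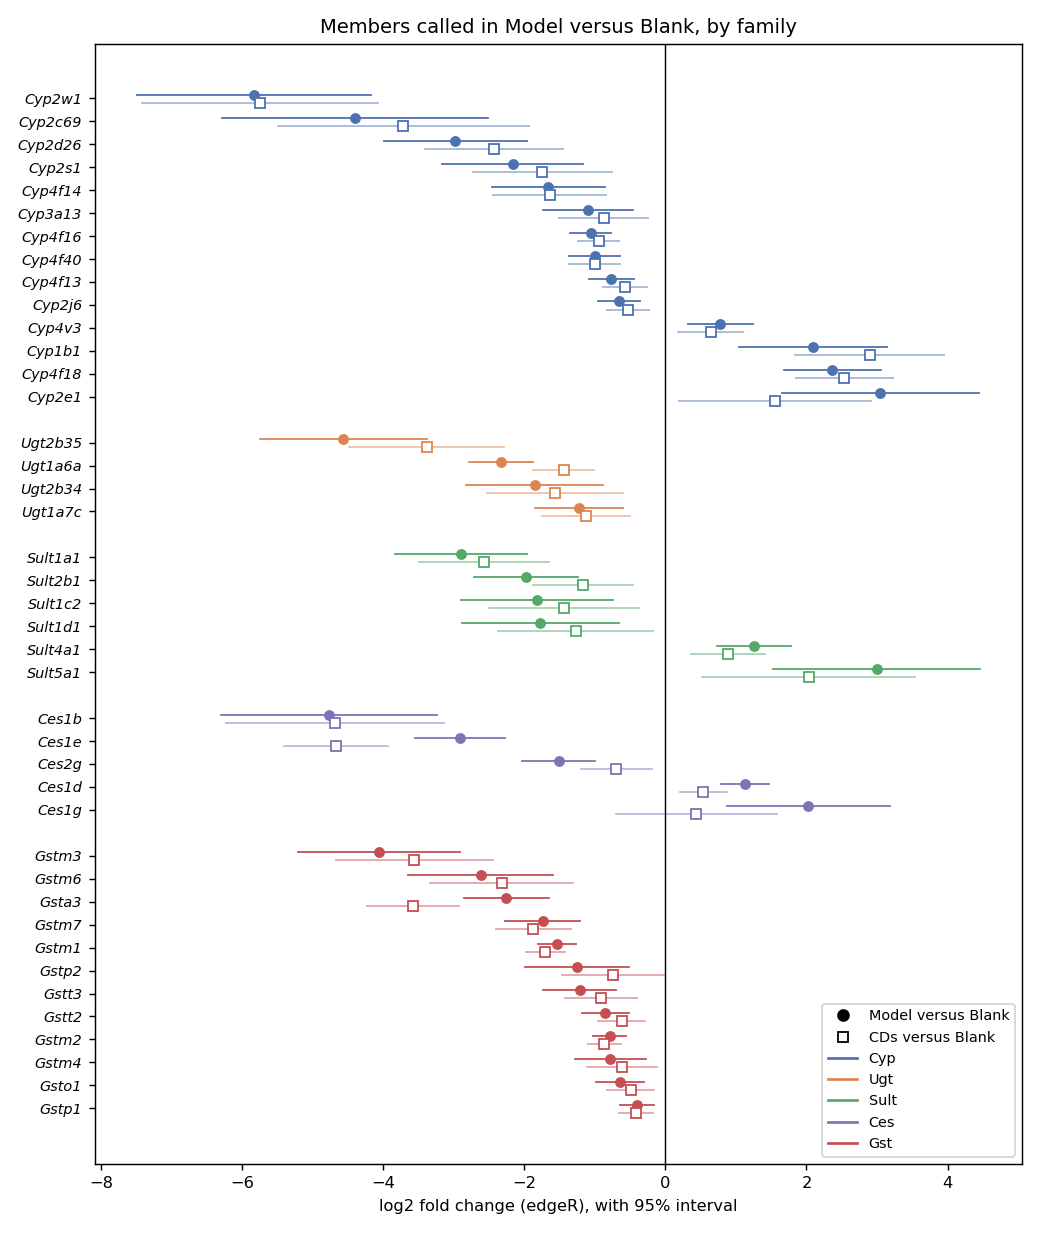
Log2 fold change (horizontal axis) with its 95% interval for the 41 members called in Model versus Blank, as filled circles, and the same genes in CDs versus Blank as open squares, grouped by family. Each of the Gst and Ugt genes lies below 0 in both comparisons, which share the 3 Blank libraries, while the other 3 families hold genes on both sides.

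**Figure D3:**
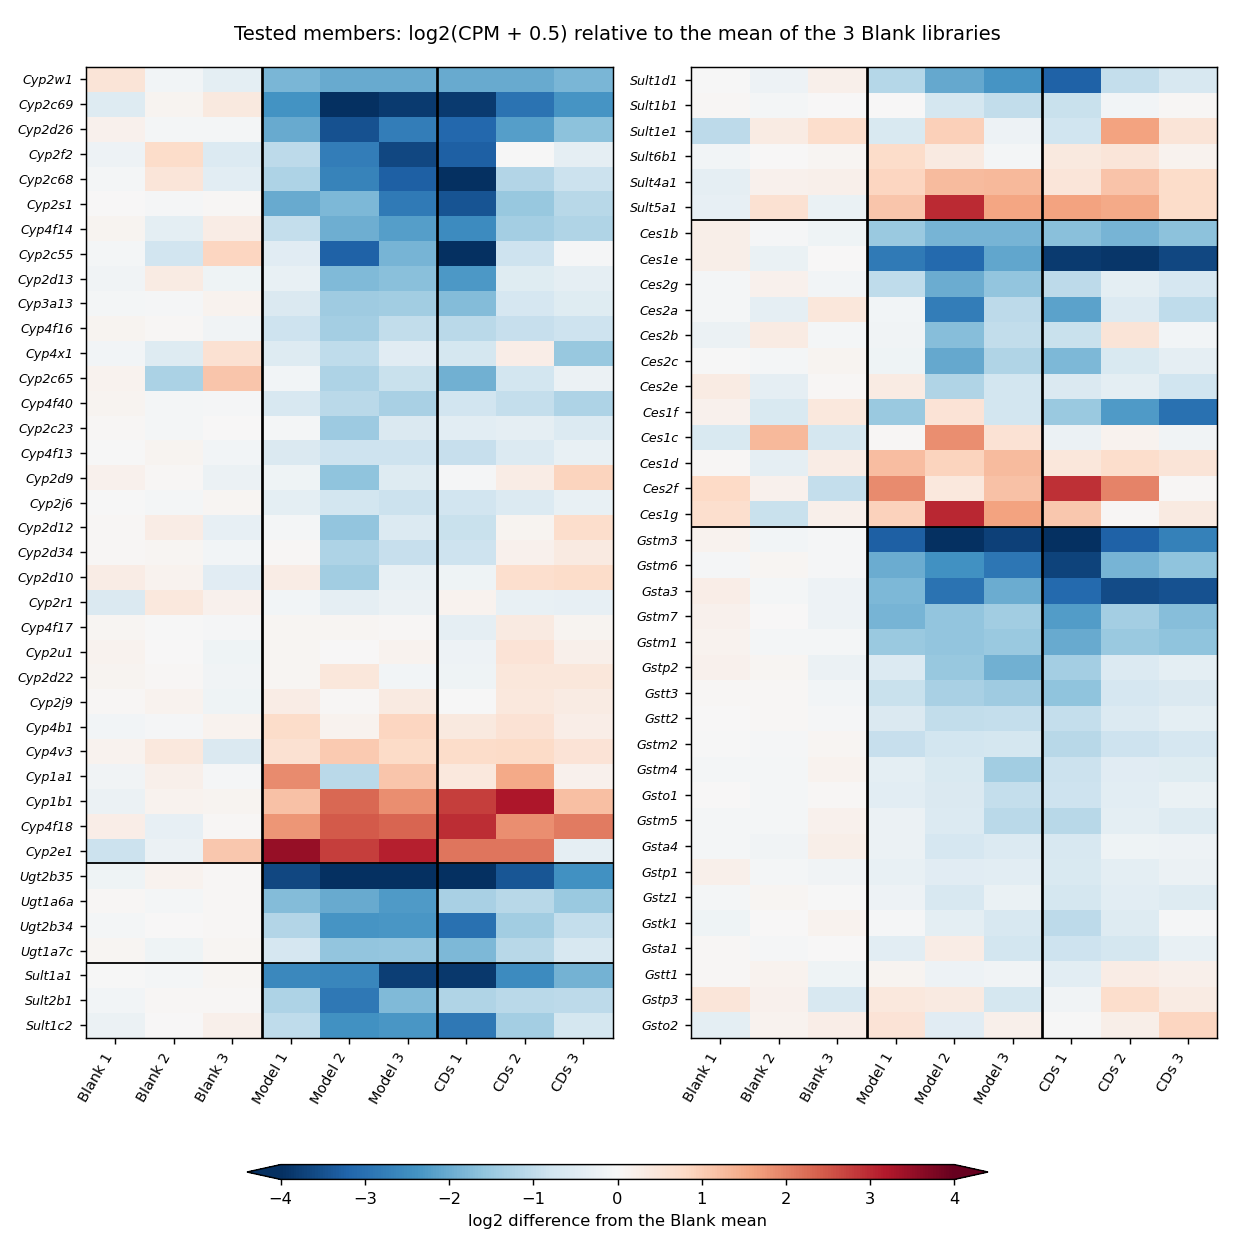
Log2 of CPM plus 0.5, minus the mean of the 3 Blank libraries, for the 77 tested members (rows, by family and then by fold change in Model versus Blank) in the 9 libraries (columns). Blue is lower and red higher than Blank. The 33 members called lower are below all Blank libraries in each of the 3 Model columns, and the 8 called higher are above them. The calls came from these same libraries, so this adds no support to them. Of all 14921 tested genes, 4620 (31.0%) lay below all Blank libraries in all Model libraries and 4479 above.

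Cytochromes P450 in Blank colon were dominated by Cyp2c55, a colon and liver epoxygenase of fatty acids, which made up 50.8% of the family's FPKM. Cyp2d34 (9.76%), Cyp2c68 (7.29%), Cyp3a13 (4.32%), Cyp4f14 (4.07%) and Cyp4f16 (2.67%) followed. Of the 81 Cyp genes, 18 had no read in any library, among them Cyp1a2, Cyp2c29, Cyp2c37, Cyp2c50 and Cyp4a14, which are known for their high levels in liver. Cyp2c55 itself ranged from 687, 425 and 1312 CPM in Blank to 535, 76.3 and 199 CPM in Model, and to 12.6, 407 and 709.7 CPM in CDs. The groups overlapped and the difference between Model and Blank was not called (log2 fold change -1.58, 95% interval -3.79 to 0.63, edgeR adjusted p 0.278). Cyp2d34 was at 222, 229 and 199.5 CPM in Blank and 223, 91.8 and 115 CPM in Model, also not called (adjusted p 0.206). Of 5 tested Cyp2c genes only Cyp2c69 was called, and of 7 tested Cyp2d genes only Cyp2d26.

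Cyp2c69 stood at 5.79, 9.26 and 11.4 CPM in Blank and at 1.23, 0 and 0.134 CPM in Model, a log2 fold change of -4.40 (SE 0.96, adjusted p 0.00699). It shares 36.3% of its 100-base transcript stretches with other genes, and Cyp2c68 19.8%, so their reads could be split by the counting. Cyp2d26 fell from 15.1, 12.6 and 12.8 CPM to 2.98, 0.76 and 1.54 CPM (log2 fold change -2.98, SE 0.52, adjusted p 0.00244). Cyp2w1, an enzyme known from fetal colon and colon tumours, had 71 reads in the 3 Blank libraries and 1 read in the 3 Model libraries, a ratio of 0.0124 (95% interval 0.000309 to 0.0712, counting error only). Its adjusted p was 0.00109, and CDs also held 1 read. All 3 genes, each of them called lower, were below their Blank range in every Model and CDs library. Of all 14921 tested genes, 4620 lay below Blank in every Model library and 3862 in every CDs library. Without Model 1 the log2 fold changes were -7.10 for Cyp2c69, -3.58 for Cyp2d26 and -7.66 for Cyp2w1, and without Model 2 they were -3.70 for Cyp2c69 and -5.22 for Cyp2w1.

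The Cyp4f genes, which inactivate leukotrienes and oxidize fatty acids at the end of the chain, did not all go one way. Of 6 tested, 4 were called lower and 1 higher, beside 19.6% and 24.5% of all tested genes. Of the 9 genes, 8 lie on chromosome 17 and Cyp4f18 alone on chromosome 8. Cyp4f16 was at 70.5, 67.4 and 59.1 CPM in Blank and 36.9, 25.2 and 32.7 CPM in Model (log2 fold change -1.06, SE 0.15, adjusted p 0.00100). Cyp4f40 went from 43.7, 38.2 and 38.7 CPM to 25.3, 18.9 and 16.2 CPM (log2 fold change -0.999, adjusted p 0.00329), and Cyp4f13 (-0.76) and Cyp4f14 (-1.66) fell too. Cyp4f17 was level at 6.49 to 7.14 CPM in Blank and 7.04 to 7.12 CPM in Model, not called. Cyp4f18, the leukotriene B4 hydroxylase of mouse neutrophils, rose from 3.67, 2.26 and 3.03 CPM to 11.1, 18.2 and 16.8 CPM (log2 fold change 2.36, SE 0.35, adjusted p 0.00120). The 6 neutrophil markers summed to 6.05 to 8.23 CPM in Blank and 225 to 2130 CPM in Model, and their part in the Cyp4f18 difference was not tested.

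Of the other Cyp genes, Cyp2j6, an arachidonic acid epoxygenase of the gut (-0.66), Cyp2s1, a P450 of epithelial surfaces (-2.17), and Cyp3a13, the Cyp3a gene of mouse gut (-1.09), were called lower. Cyp3a13 was the only one of 9 Cyp3a genes to pass the filter, and its call was lost without any one Blank library, without Model 2 or without Model 3 (adjusted p 0.0512 to 0.0881). Cyp2e1, which oxidizes ethanol and acetaminophen, rose from 2.12, 3.57 and 9.59 CPM in Blank to 53.3, 31.9 and 40.3 CPM in Model, and stood at 20.6, 20.5 and 3.24 CPM in CDs. Its log2 fold change was 3.05 (SE 0.71, adjusted p 0.00926), and 3.88 without Blank 3. The 5 adipocyte markers had sums of 6.49 to 29.2 CPM in Blank, 44.5 to 129 CPM in Model and 11.1 to 38.9 CPM in CDs. Blank 3 was the highest Blank library and CDs 3 the lowest CDs library for both. The part of adipocyte RNA in the Cyp2e1 difference was not tested.

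Cyp1b1, which oxidizes polycyclic hydrocarbons and estrogens, rose from 1.61, 2.20 and 2.14 CPM to 5.08, 11.7 and 8.38 CPM (log2 fold change 2.09, SE 0.53, adjusted p 0.0136), and reached 16.3, 22.7 and 5.15 CPM in CDs. The 6 fibroblast markers summed to 1759 to 2024 CPM in Blank and 5062 to 11380 CPM in Model, and their part in it was not tested. Cyp1a1, its better known relative, was at 1.09, 1.51 and 1.18 CPM in Blank and 5.95, 0.332 and 3.29 CPM in the Model libraries. Of these, Model 1 and Model 3 lay above and Model 2 below all Blank libraries, and the difference was not called (adjusted p 0.223). Cyp4v3 also rose (log2 fold change 0.78, adjusted p 0.0260), a call lost without Blank 1, Model 2 or Model 3 (adjusted p 0.0534 to 0.0872).

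Glucuronosyltransferases came down to few genes. Ugt2b34 made up 75.4% of the family's FPKM in Blank and Ugt1a7c 14.6%. Of the 19 genes 6 had no read in any library and 4 were tested, and the 4 were called lower. Ugt2b34 was at 586, 629 and 636 CPM in Blank, 274, 119 and 121 CPM in Model and 76.7, 235 and 315 CPM in CDs. The log2 fold change of Model over Blank was -1.85 (SE 0.50, adjusted p 0.0164), and the call was lost without Model 2 (adjusted p 0.0583) or Model 3 (0.0619). Ugt2b35, another Ugt2b gene of chromosome 5, fell further, from 43.7, 54.5 and 50.6 CPM to 3.49, 1.09 and 1.88 CPM (log2 fold change -4.56, SE 0.60, adjusted p 0.000737). The 95% intervals of the 2 genes do not overlap, at -2.82 to -0.88 and -5.75 to -3.38.

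Ugt1a6a, which conjugates small planar phenols, was at 7.20, 6.65 and 7.23 CPM in Blank, 1.74, 1.38 and 1.07 CPM in Model and 2.56, 2.99 and 2.21 CPM in CDs. The 3 groups did not overlap one another, with Blank highest and Model lowest. Model over Blank had a log2 fold change of -2.33 (SE 0.23, adjusted p 0.000306). Ugt1a7c fell from 123, 104 and 124 CPM to 73.0, 38.7 and 39.2 CPM (log2 fold change -1.22, adjusted p 0.0149), a call lost without Model 2 or Model 3 (adjusted p 0.0542 and 0.0589). Ugt1a genes are spliced from their own first exon onto shared later exons, and 95.7% of the 100-base stretches of Ugt1a6a and 52.8% of those of Ugt1a7c occur in another gene's transcripts, so the split of reads between them is uncertain. Ugt2b5, which did not pass the filter, was at 4.72 CPM in Blank 3 alone and at or under 0.514 CPM in the other 8 libraries. Without the filter, Ugt1a1, Ugt2b36 and Ugt2b5 were called lower as well.

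Sulfotransferases were led by Sult1a1, the general phenol sulfotransferase (40.7% of the family's FPKM in Blank), Sult1d1, which acts on catecholamines (33.0%), and Sult1b1, a thyroid hormone and phenol sulfotransferase of the gut (19.0%). Sult1a1 fell from 262, 249 and 276 CPM in Blank to 43.5, 42.9 and 19.0 CPM in Model (log2 fold change -2.90, SE 0.48, adjusted p 0.00189), and was at 17.7, 44.96 and 69.8 CPM in CDs. Sult1b1 stayed at 228, 138 and 113 CPM in Model against 235, 214 and 229.7 CPM in Blank, overlapping and not called (log2 fold change -0.50, interval -1.07 to 0.06, adjusted p 0.184). The 95% interval of Sult1a1, -3.83 to -1.97, lies below it. Sult1b1 thus came first in the family in Model, with 42.4% of its FPKM, while Sult1a1 held 17.3%.

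Sult1d1 and Sult1b1 are neighbours on chromosome 5, beside the Ugt2 genes. Sult1d1 went from 342, 300.4 and 398 CPM in Blank to 154, 83.0 and 67.0 CPM in Model (log2 fold change -1.77, adjusted p 0.0327), and the call was lost without any one Blank library, Model 2 or Model 3 (adjusted p 0.0606 to 0.109). Sult1c2 fell from 38.7, 46.6 and 52.6 CPM to 22.5, 8.07 and 8.72 CPM (log2 fold change -1.82, adjusted p 0.0260), a call lost without Blank 2, Blank 3, Model 2 or Model 3 (0.0613 to 0.0905), and the value was -2.45 without Model 1. Sult2b1, the cholesterol sulfotransferase of surface epithelia, was at 12.5, 13.7 and 13.95 CPM in Blank, 5.37, 1.42 and 3.62 CPM in Model and 5.57, 6.04 and 6.25 CPM in CDs (log2 fold change of Model over Blank -1.97, SE 0.38, adjusted p 0.00370). Every DSS-treated library lay below every Blank library, and every CDs library above every Model library.

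Sult4a1, a brain sulfotransferase with little known activity, rose from 2.19, 3.43 and 3.47 CPM to 5.81, 7.88 and 7.98 CPM (log2 fold change 1.26, SE 0.27, adjusted p 0.00591). Sult5a1 rose from 0.193, 0.823 and 0.221 CPM to 1.38, 6.41 and 2.08 CPM (log2 fold change 2.997, SE 0.75, adjusted p 0.0123), with values of 2.05 without Model 2 and 3.98 without Blank 2. The 9 Sult genes with no read in any library were 7 of the Sult2a genes, which are liver sulfotransferases of bile acids, and both Sult3a genes.

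Among the carboxylesterases, some neighbouring genes were called in opposite directions. All 17 lie on chromosome 8, with 8 Ces1 genes from base 93746842 to 94106353 and 7 Ces2 genes from 105460635 to 105747810 in the deposited coordinates, whose build is not stated. Ces2c (37.6% of the family's FPKM in Blank), Ces2a (20.8%) and Ces2e (19.1%), which hydrolyse drug esters and acylglycerols in gut and liver, were the main ones and were not called. Ces2c ran at 216, 209.9 and 237 CPM in Blank and 198, 53.6 and 96.2 CPM in Model (log2 fold change -0.93, interval -1.86 to -0.01). Its edgeR p was 0.0789 unadjusted and 0.135 adjusted, so the approximate interval leaves out 0 where the test does not. Ces2a was at 116, 94.2 and 167 CPM in Blank and 113, 17.5 and 58.3 CPM in Model (adjusted p 0.203). Model 1 was within or above the Blank range for Ces2a and Ces2e, and Model 2 was the lowest library of its group for all 3. Without Model 1, 9 Ces genes were called, 7 of them lower. That fit called 6957 of all 14921 tested genes, 3284 of them lower, beside 6574 and 2920 in the full fit. Of the Ces2 genes only Ces2g was called in the full fit, from 33.8, 40.5 and 32.7 CPM to 17.4, 8.55 and 11.7 CPM (log2 fold change -1.51, SE 0.26, adjusted p 0.00247).

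Among the Ces1 genes, Ces1e fell from 16.5, 11.6 and 14.1 CPM to 1.53, 1.19 and 2.95 CPM (log2 fold change -2.91, SE 0.33, adjusted p 0.000417). Ces1b had 58 reads in Blank and 2 in Model, a ratio of 0.0303 (95% interval 0.00358 to 0.114, counting error only, adjusted p 0.00189), and its log2 fold change of -4.76 was -7.38 without Model 1 and -4.08 without Model 2. In between them on the chromosome, Ces1d, a triacylglycerol hydrolase of liver and fat, rose from 44.8, 34.0 and 53.3 CPM to 102.7, 80.7 and 105.5 CPM (log2 fold change 1.13, SE 0.17, adjusted p 0.00135). Ces1g, a liver and gut lipid hydrolase, rose from 20.1, 6.52 and 14.2 CPM to 24.0, 104 and 38.4 CPM (log2 fold change 2.03, SE 0.59, adjusted p 0.0227). That value rests on Model 2, since it was 1.19 without Model 2 (adjusted p 0.0839), and the call was also lost without Blank 2 or Blank 3. Ces1a, which was not tested, had 34 reads in the 3 Model libraries and none in Blank or CDs. Most of the reads, 24, came from Model 2, with 3 in Model 1 and 7 in Model 3. The pooled Model reads were at least 3.32-fold higher than Blank when Blank is set to 3 reads per library. The Ces1 genes were thus 2 called higher, 2 called lower and 2 not called of 6 tested. Beside this, 24.5% of all tested genes were called higher and 19.6% lower.

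**Figure D4:**
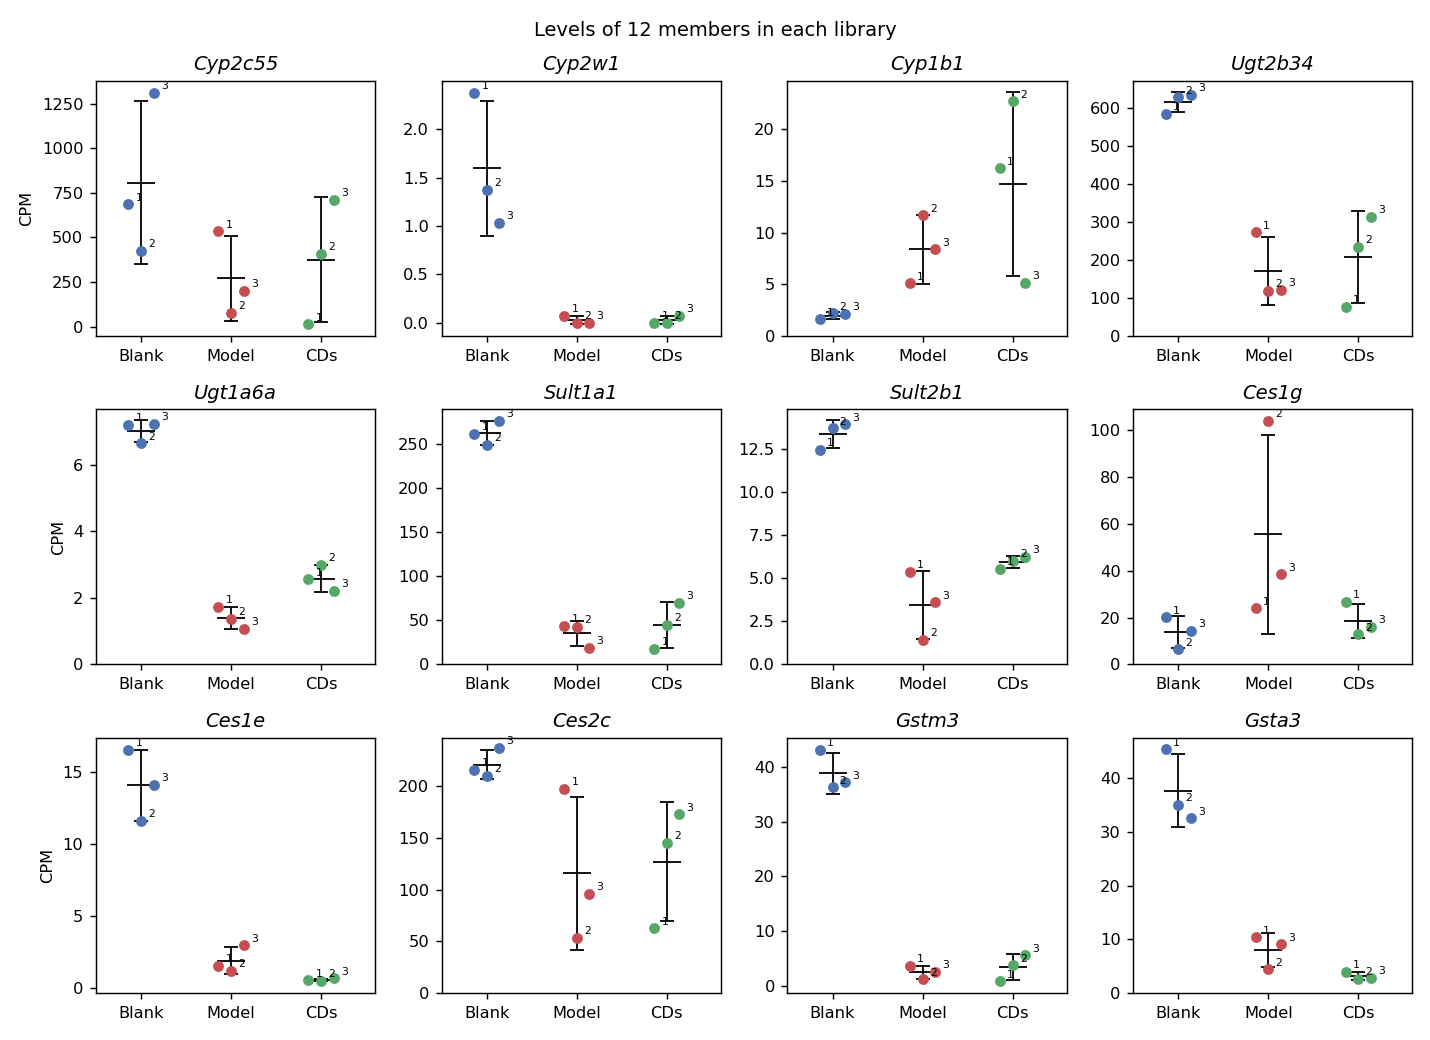
CPM (vertical axis) of 12 members in each library, with points numbered by replicate and the mean ± SD over 3 libraries in black. Cyp2w1, Sult1a1, Ces1e, Gstm3 and Gsta3 lie below all Blank libraries in all 6 DSS-treated libraries, Cyp1b1 lies above Blank in all of them, and Ces1g is high in Model 2. Of all 14921 tested genes, 4620 lay below and 4479 above Blank in every Model library. In every CDs library 3862 lay below and 4206 above.

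Glutathione S-transferases had 12 of 20 tested genes lower, none higher, and 18 of 20 fold changes negative under TMM scaling. This depended on the scaling. When libraries were scaled to epithelial markers, 3 of the 20 were lower and 1 higher, beside 1.67% and 47.6% of all genes. The median log2 fold change of the family was then 0.19, beside 0.87 for all genes. Gstm1 (26.1% of the family's FPKM in Blank), Gsto1 (22.3%) and Gstp1 (12.3%) were the main transcripts. The 7 Gstm genes, the mu class, form 1 array on chromosome 3, and in all 7 each Model library was below each Blank library, as happened in 31.0% of all tested genes. Gstm1 went from 259, 219.9 and 223 CPM in Blank to 82.6, 76.96 and 82.7 CPM in Model and 57.9, 82.2 and 75.8 CPM in CDs (log2 fold change of Model over Blank -1.53, SE 0.14, adjusted p 0.000262). Gstm3 fell from 43.2, 36.3 and 37.2 CPM to 3.56, 1.14 and 2.48 CPM (log2 fold change -4.06, SE 0.59, adjusted p 0.00107).

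Gstm2 (-0.79), Gstm4 (-0.78), Gstm6 (-2.62) and Gstm7 (-1.74) were called lower, and Gstm5 was not (-0.61, adjusted p 0.0817). The call of Gstm4 was lost without any one Blank library, Model 2 or Model 3. The array thus spans log2 fold changes from -0.61 to -4.06, and the 95% interval of Gstm3 (-5.21 to -2.91) does not meet that of Gstm2 (-1.02 to -0.55). Gstm3 shares 13.8% of its 100-base stretches with other genes.

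Of the alpha class, which reduces lipid peroxides, Gsta3 fell from 45.3, 35.0 and 32.5 CPM to 10.4, 4.37 and 9.05 CPM (log2 fold change -2.26, SE 0.31, adjusted p 0.000826). Gsta4, which conjugates the lipid peroxidation product 4-hydroxynonenal, was not called (-0.49, adjusted p 0.0595), nor was Gsta1 (-0.24), of whose stretches 81.8% occur in other genes. Gsto1, an omega-class enzyme that reduces dehydroascorbate, fell modestly from 279, 262 and 280.4 CPM to 203, 182 and 142 CPM (log2 fold change -0.64, adjusted p 0.0162), a call lost without Model 3 (0.0553). Gstp1, the pi-class enzyme common in epithelia, was at 133, 109.5 and 105 CPM in Blank and 92.8, 84.7 and 85.5 CPM in Model (log2 fold change -0.40, adjusted p 0.0297). Its call was lost without Blank 1, Blank 2, Model 2 or Model 3 (adjusted p 0.0551 to 0.109), and that of Gstp2 (-1.25) without the same libraries, one at a time. Of the stretches of Gstp1 38.4% and of Gstp2 42.2% occur in other genes. Gstt2 (-0.85) and Gstt3 (-1.22) of the theta class fell, while Gstt1 (-0.07), Gstk1 (-0.35), Gstz1 (-0.36), Gsto2 (0.17) and Gstp3 (0.04) were not called.

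Epithelial markers were also lower in Model, with a median log2 fold change of -0.74 over 12 markers, 4 of them called. The calls were therefore set beside those of a fit scaled to these 12 markers, which raises the median of all genes by 0.90. In that fit 18 of the 77 members were called lower and 16 higher, beside 1.67% of all genes lower and 47.6% higher, and 25 of the 41 calls above were kept in the same direction, 17 of them lower. The 17 were Cyp2c69, Cyp2d26, Cyp2s1, Cyp2w1, Cyp4f14, Ugt1a6a, Ugt2b34, Ugt2b35, Sult1a1, Sult1c2, Sult1d1, Sult2b1, Ces1b, Ces1e, Gsta3, Gstm3 and Gstm6. By family, only Ugt kept a negative median log2 fold change on that scale (-1.29). The medians were 0.11 for Cyp, 0.30 for Sult, 0.06 for Ces and 0.19 for Gst, beside 0.87 for all genes. Among single genes Gstm3 was then at -3.25, Ugt2b35 at -3.78 and Sult1a1 at -2.04 (edgeR adjusted p 0.000362, 0.000185 and 0.000755). Gstm1 and Gstm7 were no longer called, and 21 members turned from below to above 0, 1 of them with a call. Of the 21, 7 had been called lower, Cyp2j6, Cyp4f13, Gstm2, Gstm4, Gsto1, Gstp1 and Gstt2, with values of 0.0094 (Gstt2) to 0.50 (Gstp1) on that scale. Of the Gst genes 3 were then lower and 1, Gstt1, was higher. The 8 members called higher stayed so, and 8 more were called higher on that scale, Cyp1a1, Cyp2d22, Cyp2j9, Cyp4b1, Cyp4f17, Sult6b1, Ces2f and Gstt1.

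**Figure D5:**
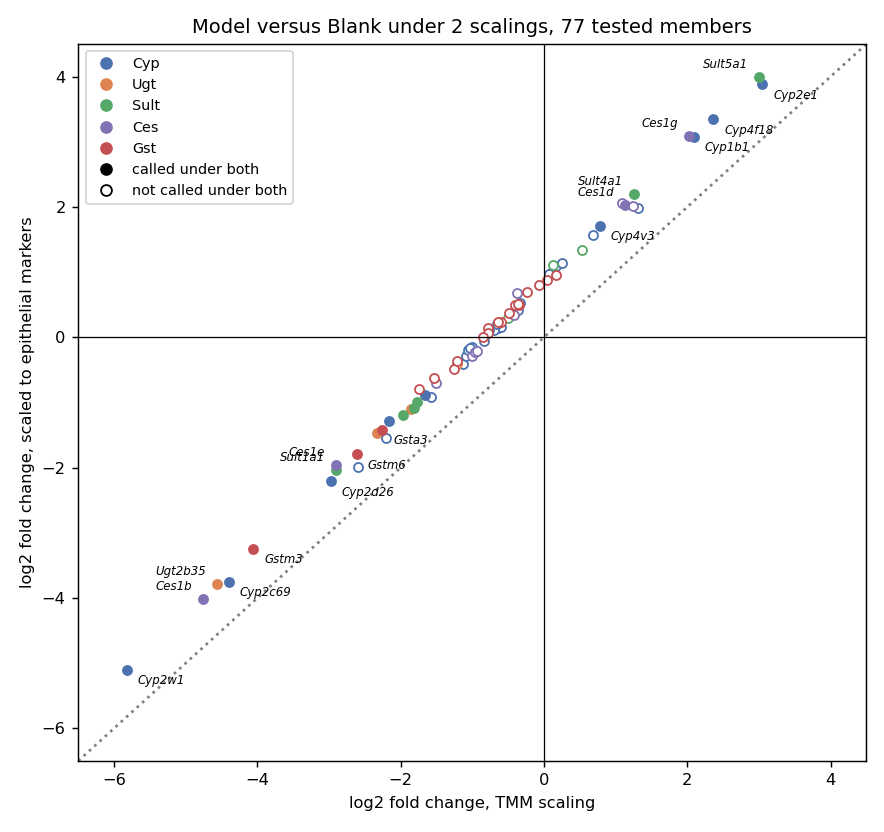
Log2 fold change of Model over Blank for the 77 tested members under TMM scaling (horizontal axis) and under scaling to the 12 epithelial markers (vertical axis), with filled points called under both and the dotted line marking equal values. All points lie above the line, and the named genes in the lower left stay below 0 under both.

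CDs versus Blank shares the 3 Blank libraries with the comparison above, so the 2 sets of values are not independent. It called 28 members lower and 4 higher of 77, where the background was 13.8% lower and 21.8% higher (35.6% in either direction). By family, lower and higher calls were 9 and 2 for Cyp, 4 and 0 for Ugt, 2 and 1 for Sult, 3 and 1 for Ces, and 10 and 0 for Gst. The higher genes were Cyp1b1 (log2 fold change 2.89), Cyp4f18 (2.53), Sult4a1 (0.89) and Ces1d (0.54), and the calls of Sult4a1 and Ces1d were lost without Blank 1, Blank 2, CDs 2 or CDs 3, that of Sult4a1 also without Blank 3. Of these 32 calls, 18 were kept with every single library left out, and 5 without Blank 2 and Blank 3. Of the Ugt calls, those of Ugt2b34 and Ugt1a7c were lost without CDs 2 and without some single Blank libraries. Gsta3 stood at 3.90, 2.63 and 2.87 CPM in CDs, a log2 fold change of -3.58 against Blank (SE 0.33, adjusted p 0.000338), and Ces1e at 0.512, 0.478 and 0.662 CPM (log2 fold change -4.67, SE 0.38, adjusted p 0.000271). Ces1f was at 48.0, 27.7 and 56.2 CPM in Blank, 14.9, 61.2 and 24.9 CPM in Model and 14.7, 8.43 and 4.85 CPM in CDs. It was called in CDs versus Blank (log2 fold change -2.23, adjusted p 0.0166) and not in Model versus Blank (-0.38, adjusted p 0.588), and the call was lost without Blank 3 (0.0503) or CDs 2 (0.0589).

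CDs versus Model asks whether the carbon dots changed DSS-treated colon. No member was called by edgeR, and neither was any of the 14921 genes (background 0%), with a smallest adjusted p among the members of 0.891. Unadjusted p-values under 0.05 were found for 9 of the 77 members, 3 higher and 6 lower in CDs, where the background was 5.28% of all genes, 1.53% higher and 3.75% lower. The 9 were Ces1e, Ces1d, Ces1f, Ces1g, Gsta3 and Cyp2e1, lower in CDs, and Ugt1a6a, Cyp2d9 and Ces2g, higher in CDs. DESeq2 called 51 genes (0.328%, of which 0.296% lower), among them Ces1e (adjusted p 0.0354) and Gsta3 (0.0328), both lower.

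Ces1e was at 1.53, 1.19 and 2.95 CPM in Model and at 0.512 to 0.662 CPM in CDs, a log2 difference of -1.76 (95% interval -2.53 to -0.99), and the groups did not overlap. Over all 77 members 8 had groups that did not overlap, 3 higher and 5 lower in CDs, beside 7.99% of all genes (3.22% higher, 4.77% lower). Gsta3 was at 4.37 to 10.4 CPM in Model and 2.63 to 3.90 CPM in CDs (log2 difference -1.33, interval -1.96 to -0.69), also without overlap. Ces1d was at 80.7 to 105.5 CPM in Model and 59.9 to 70.3 CPM in CDs (-0.59, interval -0.92 to -0.26), nearer to the 34.0 to 53.3 CPM of Blank, with no overlap between any of the 3 groups. Ces1e and Gsta3 were farther from Blank in CDs than in Model, and Ces1d and Ugt1a6a closer to it. Ugt1a6a was 0.89 higher in CDs than in Model on the log2 scale (interval 0.43 to 1.35), Cyp2d9 1.14 higher (interval 0.41 to 1.86) and Cyp2e1 1.49 lower (interval -2.78 to -0.20). None of these passed the adjusted threshold in edgeR. Among the main transcripts Cyp2c55 differed by 0.48 (interval -1.68 to 2.64), Ugt2b34 by 0.29 (-0.65 to 1.23), Sult1a1 by 0.33 (-0.55 to 1.21), Ces2c by 0.13 (-0.78 to 1.05) and Gstm1 by -0.17 (-0.43 to 0.10).

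Leaving out the 3 libraries that held pancreatic transcripts (Model 1, Model 3, CDs 1) sets CDs 2 and CDs 3 against Model 2 alone. Of the members 26 were then called, 24 higher in CDs and 2 lower, and of all genes 1288. The higher ones included Cyp2d34 (log2 difference 1.51), Ugt2b34 (1.21), Sult1d1 (1.25), Ces2c (1.57) and Gstm3 (1.996), and the lower ones were Ces1f (-3.19) and Ces1g (-2.85). The epithelial markers differed between the libraries kept, at 6450 CPM in Model 2 and 9820 and 11890 CPM in CDs 2 and CDs 3. A single Model library, taken to vary as the other groups do, carries this comparison, and among the 3 Model libraries it is the lowest for Cyp2d34, Ugt2b34, Ces2c and Gstm3 and the highest for Ces1f and Ces1g.

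Genes that regulate, supply or assist these enzymes were counted in 4 lists, in Model versus Blank. Of 20 tested sensors and transcription factors, 8 were lower and 4 higher (40% and 20%), beside 19.6% and 24.5% of all tested genes. Pparg, a lipid-sensing receptor of colon epithelium, was at 60.7, 57.3 and 64.3 CPM in Blank and 40.2, 25.5 and 30.4 CPM in Model (log2 fold change -0.93, adjusted p 0.00284). Hnf4a (-1.40), Hnf4g (-1.72), Ppara (-1.51), Vdr (-1.95) and Nr1i2 (-0.99) were called lower as well. Cebpb, an acute-phase factor, rose from 3.67, 2.61 and 3.47 CPM to 18.6, 34.6 and 30.7 CPM (log2 fold change 3.10, adjusted p 0.000496). Tiparp, an Ahr target that restrains the receptor, rose from 37.8, 39.2 and 37.9 CPM to 65.2, 72.1 and 63.4 CPM (0.80, adjusted p 0.00165), and Ahr (0.62) rose too. Nfe2l2 (-0.02) and its inhibitor Keap1 (-0.13) were not called.

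Of 19 genes for electron donors and cosubstrates, 9 were lower and 1 higher (47.4% and 5.26%, beside the same 19.6% and 24.5%). Ugdh, which makes UDP-glucuronic acid for the Ugt enzymes, went from 301, 268 and 350.0 CPM to 141, 142 and 116 CPM (log2 fold change -1.21, adjusted p 0.00370). Papss1 and Papss2, which make the sulfate donor of the Sult enzymes, were lower (-1.57 and -1.07), as was Slc35b2, which carries that donor into the Golgi (-0.49, adjusted p 0.00588). For glutathione, Gss (-1.18, adjusted p 0.00166) and Gclm (-0.58, adjusted p 0.00166) were lower, while Slc7a11, the cystine importer, was the gene that rose, from 10.2, 9.88 and 6.49 CPM to 28.6, 58.5 and 44.7 CPM (2.31, adjusted p 0.00376). Cyb5b, a cytochrome b5 that donates electrons, was lower (-0.88, adjusted p 0.00247), and Por was not called (0.24).

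Of 14 tested transporters, 5 were higher and 3 lower (35.7% and 21.4%, beside 24.5% and 19.6% of all). Abcc5 (log2 fold change 1.31, adjusted p 0.000369), Abcb1b (1.97, adjusted p 0.00183), Slco3a1 (1.13, adjusted p 0.000443), Slco2b1 (0.65) and Slc22a4 (1.58) were higher, and Abcc3, Abcc6 and Abcg2 lower. Abcb1b and its neighbour in sequence Abcb1a, both P-glycoproteins, differed: Abcb1b was at 4.21 to 5.49 CPM in Blank and 11.6, 27.7 and 18.0 CPM in Model, and Abcb1a was at 661 to 821 CPM in Blank and 452, 110.0 and 238 CPM in Model, not called (-1.43, adjusted p 0.0678). Of 25 other xenobiotic enzymes, 11 were lower and 4 higher (44% and 16%, beside 19.6% and 24.5% of all). Nqo1, a quinone reductase (-1.46, adjusted p 0.00230), Cbr3, a carbonyl reductase (-1.89, adjusted p 0.000623), and Maoa, which oxidizes amines (-1.73, adjusted p 0.00698), were lower. Xdh, the xanthine oxidoreductase, rose from 126, 114 and 98.0 CPM to 394, 425 and 352 CPM (1.79, adjusted p 0.000304), and Fmo2, a flavin monooxygenase, rose by 1.10 (adjusted p 0.0296).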

How the data were processed

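Poly-A RNA of mouse colon was sequenced in 9 libraries, grouped by their titles. The tools named in the submitters' processing notes are HTSeq 0.9.1, HISAT2 2.1.0 and fastp 0.22.0. The sources used here state no genome build, strand setting or rule for reads shared between genes, and the library protocol marks no strand, so near-identical and overlapping genes are uncertain. The authors' table gives, per the file headers, the count of reads and the FPKM of each gene in each library, and the FPKM equalled count over length and total in 100% of values (tolerance 1e-06). A total of 3565 of 21959 genes had no read. A further 51 genes have an ID and no symbol and were kept.

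Testing used the quasi-likelihood method of edgeR 4.0.16 in R 4.3.3, on deposited counts, in 1 fit of 9 libraries after its expression filter and TMM scaling, with two-sided p-values adjusted by Benjamini and Hochberg. SE is the fold change over the square root of F, and intervals are 1.96 SE either side, which is narrower than the F test implies. Alternatives numbered 18, DESeq2 1.42.0 among them. The fit was tested on simulated data. Members, lists and motifs were chosen with earlier results of these data known. Every member may be named, with full values for the 5 smallest p in Model versus Blank, the 3 highest mean FPKM and the 2 smallest p in CDs versus Model of each family. From each of the 4 lists the 4 smallest p and the 2 highest fold changes among called genes were named, and other list genes were chosen after their values were seen. Shared sequence is the share of 100-base stretches of GENCODE vM21 transcripts also found in another gene's transcripts. Some genes of the lists and 1 motif are not reported here.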

Additional observations from a re-analysis of the deposited data

How the results depend on the processing

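Without Model 1, Model 3 and CDs 1, Model versus Blank called 24 Cyp and 9 Ces members, CDs versus Blank 5 Sult and 8 Ces members, and CDs versus Model 26. Without Blank 2 and Blank 3, Model versus Blank called 3 Cyp, 2 Ugt, 2 Sult, 3 Ces and 4 Gst members, 1 sensor, 2 cosubstrate genes, 3 transporters and 3 other enzymes, and CDs versus Blank 1 Cyp, 0 Ugt, 0 Sult, 1 Ces and 3 Gst members. Scaling to epithelial markers gave 4 Gst members and 5 cosubstrate genes in Model versus Blank, and 2 Ugt and 5 Gst members in CDs versus Blank. It moved the median of all genes by 0.90, 0.59 and -0.32 in Model versus Blank, CDs versus Blank and CDs versus Model, and in Model versus Blank turned the sign of 21 members, among them, with no call, Cyp2d34 (0.16), Cyp2d9 (0.11), Sult1b1 (0.30), Ces2e (0.34), Gstm2 (0.14), Gsto1 (0.23), Gstp1 (0.50) and Gsta1 (0.70). Gsta1 also turned without Model 1, Model 3 and CDs 1 (0.33). Without the filter, and with DESeq2, 7 Ugt members were called in Model versus Blank and 9 in CDs versus Blank, and DESeq2 called 6 Sult members in CDs versus Blank and 2 members in CDs versus Model. The added Ugt genes were members that had not passed the filter, both in the fit without it and with DESeq2. The causes of the other changes were not tested.

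Leaving out 1 library at a time gave, in Model versus Blank, 12 to 19 Cyp, 2 to 4 Ugt, 4 to 7 Sult, 4 to 9 Ces and 8 to 15 Gst calls, and 8 to 12 sensors, 8 to 13 cosubstrate genes, 5 to 10 transporters and 6 to 18 other enzymes. In CDs versus Blank it gave 7 to 13 Cyp, 2 to 4 Ugt, 1 to 5 Sult, 2 to 6 Ces and 6 to 12 Gst calls, and in CDs versus Model 0. The log2 ratios of summed FPKM ranged, with 1 Blank or Model library left out (an alternative chosen after seeing the data), from -1.60 to -0.85 for Cyp, -2.25 to -1.59 for Ugt, -1.92 to -1.37 for Sult, -0.59 to -0.22 for Ces and -0.92 to -0.76 for Gst. RLE size factors, library totals and a fit of the 6 libraries compared left all family counts within 1.5 times.

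Same-numbered libraries had correlations of their deviations from -0.37 to 0.21, and libraries of different number from -0.35 to 0.47. With 3 libraries a group, these values cannot decide whether the replicate numbers pair the mice. With the replicate block, 35 members were called in Model versus Blank and 27 in CDs versus Blank, where Ugt went from 4 to 2, and 0 in CDs versus Model. Members with few reads could not be tested at this depth, and 3 libraries a group limit all calls.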
